A study of Homo sapiens with 2 samples.

Results

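The nuclear genes of respiratory chain complexes I to V were read in AsPC-1 cells on 2 arrays. AsPC-1 is an established line of human pancreatic ductal adenocarcinoma. Its cells were transfected with control siRNA or with an siRNA against PGR, the nuclear progesterone receptor, and 1 array was run per condition. The labels name no genotype or time for either culture, which shared a line and a medium with 10% serum. The members were genes whose symbol begins with NDUFA, NDUFB, NDUFC, NDUFS, NDUFV, SDH, UQCR, ATP5 or COX4 to COX8, read by probe sets assigned to 1 gene only. The rule used no measured value. It found 94 genes of 19775 and 178 probe sets, and 18 more probe sets with such symbols named several genes and were left out.

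The respiratory chain sits in the inner mitochondrial membrane and passes electrons from NADH and succinate to oxygen. Complexes I, III and IV use the energy released to pump protons out of the matrix, complex II feeds in electrons from the citrate cycle without pumping, and complex V, the ATP synthase, makes ATP as protons flow back. All but complex II combine nuclear subunits with subunits encoded in mitochondrial DNA, and assembly needs dedicated helper proteins. Promoters of nuclear subunits are textbook targets of the transcription factors NRF1, GABP of the ETS family, and YY1.

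Of the 94 genes, 75 encode structural subunits, 12 encode assembly factors (NDUFAF1 to NDUFAF8 and SDHAF1 to SDHAF4), and 5 are noncoding transcripts or pseudogenes. COX7A2L, a factor that joins complexes III and IV, and ATP5IF1, the inhibitor of ATP hydrolysis by complex V, complete the set. By complex, 33 of the structural subunits belong to complex I, 3 to complex II, 6 to complex III, 16 to complex IV and 17 to complex V.

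Stretches of promoter are shown for 6 subunits from the 5 complexes, most of them chosen for the size of their difference. NDUFB3 and NDUFA5 are the complex I subunits with the highest and lowest differences between the arrays. UQCRQ and COX6B1 had the highest differences of complexes III and IV. SDHD had the lowest of complex II. ATP5PF of the ATP synthase stalk holds all 3 motifs. Each line gives the 170 bases before a transcription start, written 5′ to 3′ from RefSeq on GRCh38.p14, and capitals mark the letters of a motif on either strand. The searched letters were CGCATGCG for NRF1, CCGGAAG for the ETS family and AAGATGGCG for YY1. For NDUFA5 and ATP5PF, which have more than 1 start in the table, the start with the most kinds of motif is shown. NDUFB3 lies at chr2:201071831-201072000 on the plus strand. NDUFA5 lies at chr7:123557819-123557988 on the minus strand. SDHD lies at chr11:112086703-112086872 on the plus strand. UQCRQ lies at chr5:132866472-132866641 on the plus strand. COX6B1 lies at chr19:35648153-35648322 on the plus strand. ATP5PF lies at chr21:25735055-25735224 on the minus strand.
NDUFB3: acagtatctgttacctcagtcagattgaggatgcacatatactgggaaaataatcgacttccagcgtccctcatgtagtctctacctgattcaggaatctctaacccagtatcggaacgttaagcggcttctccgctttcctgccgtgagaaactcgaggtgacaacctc
NDUFA5: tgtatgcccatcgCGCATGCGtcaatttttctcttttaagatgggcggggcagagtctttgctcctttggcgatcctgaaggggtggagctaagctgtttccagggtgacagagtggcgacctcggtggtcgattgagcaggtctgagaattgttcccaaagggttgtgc
SDHD: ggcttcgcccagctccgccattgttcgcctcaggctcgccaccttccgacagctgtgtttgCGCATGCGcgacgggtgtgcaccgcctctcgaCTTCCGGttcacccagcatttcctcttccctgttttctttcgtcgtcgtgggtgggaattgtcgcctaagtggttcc
UQCRQ: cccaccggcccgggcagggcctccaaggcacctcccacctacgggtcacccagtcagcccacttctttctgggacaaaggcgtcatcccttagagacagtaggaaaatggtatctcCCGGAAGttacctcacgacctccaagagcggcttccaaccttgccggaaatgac
COX6B1: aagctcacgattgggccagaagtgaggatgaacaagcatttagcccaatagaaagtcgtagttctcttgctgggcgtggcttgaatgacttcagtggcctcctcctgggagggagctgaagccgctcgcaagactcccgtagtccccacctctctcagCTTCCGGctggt
ATP5PF: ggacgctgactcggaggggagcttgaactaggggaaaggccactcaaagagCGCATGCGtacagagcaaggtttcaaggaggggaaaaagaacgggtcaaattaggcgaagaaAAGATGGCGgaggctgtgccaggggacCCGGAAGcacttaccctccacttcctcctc

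The NDUFB3 stretch holds none of the letters searched. The NDUFA5 stretch holds the NRF1 letters, and UQCRQ and COX6B1 hold the ETS letters, on the printed strand in UQCRQ and on the opposite strand in COX6B1. SDHD holds NRF1 letters followed by ETS letters. Over windows from 250 bases before to 50 after each start, 64 of the 75 subunit genes had a row in the RefSeq table. ATP5F1B, ATP5F1D, ATP5MC3, ATP5MF, COX4I2, COX6C, COX7A1, NDUFB5, NDUFB9, SDHC and UQCRB did not.

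At least 1 of the 3 motifs was found in 32 of the 64 subunit genes (50%), beside 21.2% of the 15842 coding genes in the table. Counted by promoter, it was 33 of 76 for the subunits (43.4%), beside 13.1% of all 35116 promoters. NRF1 letters were found in 11 subunit genes (17.2%), beside 3.28% of coding genes, and in 14.5% of subunit promoters, beside 2.02% of all. ETS letters were found in 19 (29.7%), beside 16.5% of coding genes, and in 26.3% of subunit promoters, beside 10.3% of all. YY1 letters were found in 8 (12.5%), beside 3.21% of coding genes, and in 11.8% of subunit promoters, beside 1.75% of all. ETS and YY1 matches overlapped in 0 subunit promoters. A match is a description of the letters and not a bound site. By complex, a motif was found in 15 of 31 genes of complex I, 1 of 2 of complex II, 3 of 5 of complex III, 5 of 13 of complex IV and 8 of 13 of complex V.

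PGR itself, the targeted gene, was below the signal floor in both cultures. The floor was an intensity of 97.9, the midpoint of the values of probe sets assigned to 1 gene. Its brighter probe set read 16.1 with the label control and 73.3 with the label PGR siRNA, and its other read 1.53 and 4.80. Pairs of intensities are given in that order throughout. PGR therefore did not check the labels, and its values, all too dim to rank, were in the order opposite to a knockdown, so every direction given here rests on the labels. Each array held 54675 probe sets with a trimmed mean intensity of 500.1. Epithelial and ductal markers were past the floor in 8 of 8 genes, KRT8 at 21416 and 21156 among them, with summed intensities of 116669 and 121902. KRT7, at 189 and 182, and MUC1, at 122 and 174, were past the floor at far lower values. Of the markers of other cell types, 0 of 3 acinar, 0 of 3 endocrine, 2 of 4 fibroblast, 1 of 3 immune, 1 of 3 endothelial and 0 of 3 striated muscle genes passed it. Among those lists the summed intensities ran from 22.3 to 446, and CPA1, INS, LUM, PTPRC, CDH5 and CKM were below the floor. The fibroblast gene COL1A1 passed it on both arrays at 299 on each, while DCN, CD14 and PECAM1 passed it on the array labelled control only. CEACAM6, an epithelial marker, also passed it on that array only, at 120 and 79.3. The part of other cell types in the results was not tested.

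Subunits of all 5 complexes gave strong signals in both cultures, and most differed little between them. Of the 75 structural subunits, 68 were past the floor, all of them on both arrays. The difference, log2(intensity + 1) under the PGR siRNA label minus that under the control label, had a median of 0.09 over these 68, a fold of 1.06, beside a median of 0.02 over the 11614 genes past the floor. It was above 0 in 52 of 68 subunits (76.5%), where 53.2% of all genes were, and within 0.1 of 0 in 31. With 1 array per condition there is no error between cultures and no test, so these values describe 2 arrays. In such a bulk measurement, a change in the share of cells and a change in RNA per cell cannot be told apart.

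**Figure D1:**
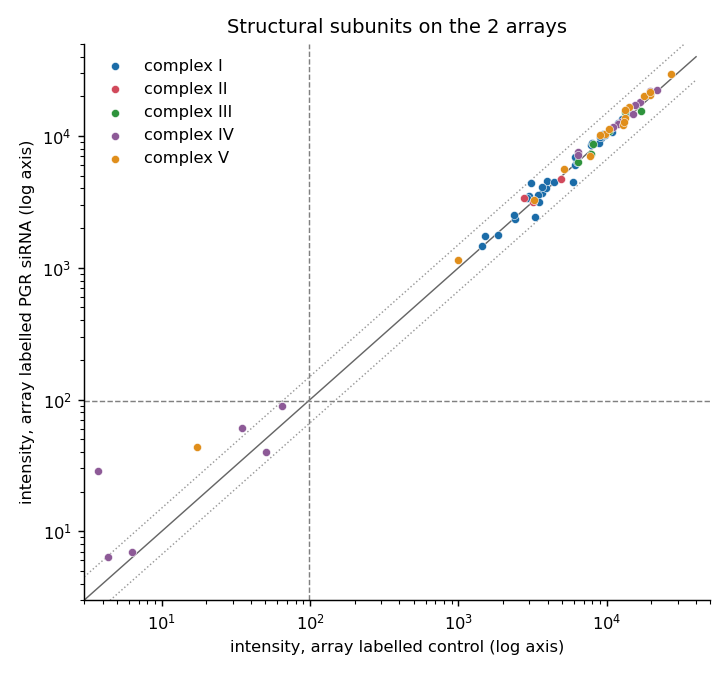
Intensity of each of the 75 structural subunits with the label control (x axis) and with the label PGR siRNA (y axis), both log axes, with each point 1 gene coloured by complex. The solid line marks equal intensity, the dotted lines 1.5-fold in either direction and the dashed lines the floor of 97.9; the 68 subunits past the floor lie along the line of equality, and 7 lie below the floor on both arrays.

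The size of the differences was small. No subunit past the floor reached 1.5-fold in either direction, where 3.65% of all genes were higher by that much and 4.72% were lower. At 25% higher or 20% lower, which is the same fold either way, 1 subunit was higher and 2 were lower, beside 11.3% and 12.3% of all genes. Subunits are bright, and bright genes vary less between arrays. Among 5127 other genes at least as bright as the dimmest subunit, 0.8% differed by 1.5-fold in either direction, 4.13% were at least 25% higher and 4.8% were at least 20% lower.

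The excess of positive differences moved with brightness too. Among 570 other genes at least as bright as the median subunit, 72.6% were higher on the array labelled PGR siRNA, with a median of 0.09. The 34 subunits of that brightness had 28 higher and a median of 0.10, and the 34 dimmer subunits had 24 higher and a median of 0.05. When a running median over non-member genes of about the same brightness was subtracted, the median of all 68 was 0.03, with 43 above 0 and 25 below. A local regression on signal also gave 0.03.

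**Figure D2:**
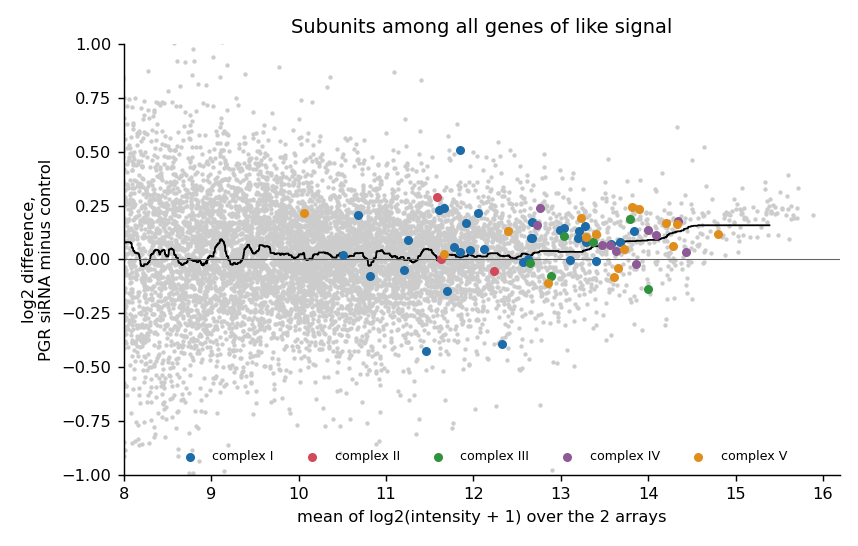
Difference between the arrays (log2, PGR siRNA minus control by the labels) against mean log2 signal, with genes past the floor in grey where they lie inside the axes, structural subunits coloured by complex, and the running median by brightness as a black line. The line climbs above 0 at the bright end, where many subunits lie, and NDUFB3, NDUFA5 and NDUFB6 stand farthest from it.

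Complex I, the NADH dehydrogenase, held the largest differences. All 33 subunits read were past the floor, with 25 higher and 8 lower on the array labelled PGR siRNA, a range from -0.43 to 0.51, a median of 0.08 and a median of 0.04 after subtraction of the running median. NDUFB3, an accessory subunit of the membrane arm, read 3089 under the control label and 4395 under the PGR siRNA label. Its log2 difference of 0.51, a fold of 1.42, rested on its only probe set.

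NDUFA5, an accessory subunit of the matrix arm, went the other way at 3267 and 2429, a log2 difference of -0.43. NDUFB6, a membrane-arm subunit named after its value was seen, read 5887 and 4479, a difference of -0.39. Both were thus brighter on the array labelled control, by 1.34-fold and 1.31-fold. The other probe set of each gene was below the floor on both arrays, so neither has a second reading. These 3 genes differed in direction within 1 complex, and no other subunit of complex I was 25% higher or 20% lower.

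The core subunits of complex I carry the flavin and the iron-sulfur clusters that lead electrons to ubiquinone. Of the 5 read, 3 were higher and 2 lower, with a median of 0.17. NDUFV1, the flavin subunit that binds NADH, read 2886 and 3381, a difference of 0.23. NDUFS7, next to the ubiquinone site, read 1520 and 1754, a difference of 0.21. NDUFS3 read 3635 and 4094, a difference of 0.17. Against these, NDUFV2, which lies beside the flavin subunit, was level at 10849 and 10806. NDUFS1, the large iron-sulfur subunit, read 3487 and 3149, a difference of -0.15, and its other probe sets past the floor ran from -0.27 to 0.16, so its direction depended on the probe set.

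The accessory subunits surround this core. The 3 named NDUFS or NDUFV had a median of 0.09, with NDUFS6, a zinc-binding subunit, at 6125 and 6912 (0.17), NDUFS4 at 2369 and 2521 (0.09) and NDUFV3 at 1858 and 1761 (-0.08). Of the 13 NDUFA subunits, 9 were higher and 4 lower, with a median of 0.06. NDUFA3 read 2980 and 3516, a difference of 0.24, and NDUFA8 read 3945 and 4579, a difference of 0.22. NDUFAB1, the mitochondrial acyl carrier protein and the brightest complex I probe set, read 14022 and 15350, a difference of 0.13. Of the 12 NDUFB and NDUFC subunits, 11 were higher and only NDUFB6 was lower, with a median of 0.08, and 10 of the 12 were within 0.3 of 0. With the running median subtracted, 9 were higher and 3 lower, with a median of 0.04. Other probe sets past the floor were below 0 for NDUFB2, NDUFB4 and NDUFC1 and above 0 for NDUFB8 and NDUFB10.

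Complex II, succinate dehydrogenase, belongs to both the citrate cycle and the chain. SDHA, the flavoprotein, was level at 3177 and 3180. SDHD, a membrane anchor, read 4910 and 4728, a difference of -0.05. SDHC, the other anchor, read 2779 and 3396, a difference of 0.29, the highest of complex II, but its 5 other probe sets past the floor ran from -0.39 to 0.28. The median of the 3 genes was 0.002 as deposited and turned below 0 under median centring (-0.02), local regression (-0.02) and subtraction of the running median (-0.01), so no direction can be given for complex II.

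Complex III, the cytochrome bc1 complex, passes electrons from ubiquinol to cytochrome c. Of its 6 subunits read, 3 were higher and 3 lower, with a median of 0.03 that turned to -0.01 after local regression or subtraction of the running median. The core proteins UQCRC1 (6441 and 6368) and UQCRC2 (7771 and 7360) were both slightly dimmer on the array labelled PGR siRNA, with differences of -0.02 and -0.08. Of the small subunits, UQCRQ read 13343 and 15175, a difference of 0.19. UQCRB, which lies near the ubiquinone site and was the brightest of the complex, read 17116 and 15554, a difference of -0.14, and its other probe sets past the floor gave -0.37 and -0.003. UQCR10 read 8084 and 8703 (0.11) and UQCR11 10277 and 10862 (0.08). The second probe set of UQCR11 gave -0.40.

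Complex IV, cytochrome c oxidase, reduces oxygen to water. Several of its nuclear subunits exist as a widespread form and a form restricted to tissues such as muscle, lung or testis, and AsPC-1 cells showed the widespread forms. All 10 of these were past the floor, with intensities from 6416 upward. Of the restricted forms, 0 of 6 reached it on either array. COX4I2 read 64.3 and 89.3, COX7B2 34.5 and 60.3, and COX8C 3.70 and 28.4. COX6A2 read 50.8 and 40.1, COX6B2 6.32 and 6.98, and COX7A1 4.33 and 6.37. Values under the floor have no usable order, and no fold is given for them. The same pattern held for a subunit now named COXFA4 (older symbol NDUFA4, outside the symbol rule), which read 8616 and 8391, and its relative COXFA4L2, which read 17.7 and 73.5.

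Of the 10 widespread subunits of complex IV, 9 were higher on the array labelled PGR siRNA, with a median of 0.09 that fell to 0.01, with 6 higher and 4 lower, once the running median was subtracted. COX6B1, which faces cytochrome c, read 6416 and 7573, the highest difference of the complex at 0.24. COX6A1 read 19533 and 22081 (0.18), COX8A 6416 and 7174 (0.16) and COX6C 15605 and 17134 (0.13). These 4 stayed above 0 beside genes of like signal. COX4I1, the subunit that carries nucleotide regulation, read 16724 and 18060, a difference of 0.11. COX5B read 11840 and 12396 (0.07), COX7B 11087 and 11628 (0.07), and COX5A 12485 and 12836 (0.04). COX7C, the brightest of the complex, read 21918 and 22456, a difference of 0.04. COX7A2 was the only subunit with a negative difference, -0.02, at 15025 and 14799. COX5A, COX5B and COX7C turned to -0.03, -0.01 and -0.11 when the running median was subtracted.

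Complex V had the highest median of the 5 complexes as deposited, 0.12, with 13 of 16 subunits past the floor higher and 3 lower. That order did not hold when all probe sets of a gene were averaged, where its median was 0.02, the lowest of the 5. This average takes in probe sets below the floor, such as one of ATP5F1A at 76.1 and 15.3. With every probe set past the floor counted singly, the median of complex V was 0.09, again the highest of the 5. After subtraction of the running median it was 0.05, with 10 above 0 and 6 below. The seventeenth gene, ATP5MF, was below the floor at 17.3 and 43.3 on its only probe set assigned to 1 gene. Whether that probe set misses transcripts of ATP5MF was not tested.

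The parts of the ATP synthase did not share 1 value. The peripheral stalk, which holds the catalytic head still against the turning rotor, had 4 of 4 subunits higher, with a median of 0.21 and of 0.15 beside genes of like signal. ATP5PD read 13207 and 15648, a difference of 0.24. ATP5PB, named with the other stalk subunits after their values were seen, read 14051 and 16534, a difference of 0.23. ATP5PF read 8972 and 10263 (0.19) and ATP5PO read 10385 and 11268 (0.12). A second probe set gave 0.38 for ATP5PD, at 118 and 154, and -0.19 for ATP5PO, at 2391 and 2103. The direction was thus repeated for ATP5PD, though only by a probe set near the floor, and not for ATP5PO.

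The F1 head and central stalk, where ATP is made, had a median of 0.05 with 4 of 5 higher, and -0.04 with 1 of 5 higher once the running median was subtracted. ATP5F1A, the alpha subunit and the brightest of the complex, read 27281 and 29610, a difference of 0.12 that turned to -0.04 on that scale. ATP5F1B, the catalytic beta subunit, read 19575 and 20436 (0.06, or -0.06). ATP5F1E, the epsilon subunit of the central stalk, read 12889 and 12198, a difference of -0.08, and its second probe set gave -0.79.

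Subunit c forms the rotor ring and is encoded by 3 genes whose mature protein is the same. ATP5MC1 read 993 and 1152 (0.21), ATP5MC2 5144 and 5642 (0.13), and ATP5MC3 13113 and 12743 (-0.04). The 3 genes thus did not share a direction. Among the membrane subunits that join ATP synthases into rows, ATP5MK read 19420 and 21785 (0.17), ATP5MG 17855 and 20069 (0.17) and ATP5ME 9673 and 10392 (0.10). With the running median subtracted these became 0.04, 0.06 and 0.06. The other probe sets of ATP5MG ran from -0.10 to 0.20, and that of ATP5ME gave -0.12. ATP5MJ read 7662 and 7101, the lowest difference of the complex at -0.11, and its other probe set gave 0.08.

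**Figure D3:**
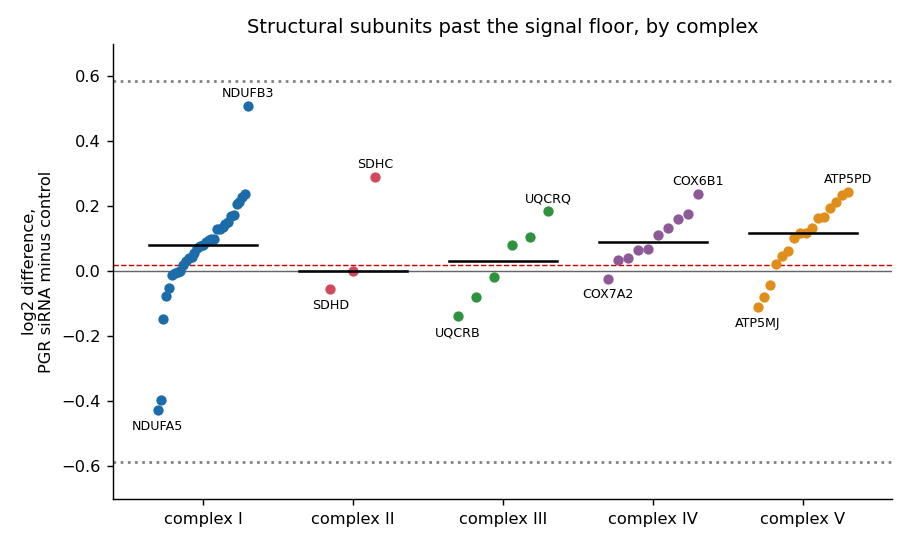
Difference between the arrays (log2, PGR siRNA minus control by the labels) for each structural subunit past the floor, ordered within each complex, with 1 point per gene, black bars at each complex's median, a dashed line at the median of all genes (0.02) and dotted lines at 1.5-fold. Complex I spans -0.43 to 0.51, complexes II to V lie between -0.14 and 0.29, and no point reaches the dotted lines.

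Subunits with and without the promoter letters printed above lay at nearby values. The median difference was 0.11 over 32 genes with a motif and 0.06 over 28 past the floor without, or 0.04 and 0.03 once the running median was subtracted. The ranges overlapped, from -0.43 (NDUFA5) to 0.24 with a motif and from -0.39 (NDUFB6) to 0.51 (NDUFB3) without. By motif, the median was 0.13 over 11 genes with NRF1 letters, 0.13 over 19 with ETS letters and 0.02 over 8 with YY1 letters, which became 0.06, 0.06 and -0.001 once the running median was subtracted. For genes past the floor without each motif it was 0.08, 0.06 and 0.10, or 0.02, 0.02 and 0.04 on that scale. The factors themselves read 384 and 353 for NRF1 (-0.12), 543 and 505 for GABPA (-0.10), and 10024 and 9145 for YY1 (-0.13). Other probe sets past the floor ran from -0.48 to 0.05 for NRF1 and from -0.49 to 0.07 for YY1, so the direction of these 2 depended on the probe set, while that of GABPA gave -0.15.

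The only repeat measure inside these arrays is a second probe set for the same gene. Of the 68 subunits, 27 had more than 1 probe set past the floor on both arrays, with 43 probe sets beside the brightest. In these 27 the brightest probe set had a median difference of 0.07 and the others, averaged by gene, -0.04. The others were lower than the brightest in 19 of 27 (70.4%) beside 54.6% of 5203 genes with such pairs. They were of opposite sign in 11 of the 27, and in 2193 of the 5203. The SD of single probe sets within a subunit, pooled over subunits, was 0.21.

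The disagreement was greatest where the other probe sets were dim. In 9 subunits whose others were at least 8-fold dimmer, the medians were 0.08 for the brightest and -0.24 for the others, and in the remaining 18 they were 0.04 and 0.02. COX4I1 gave 0.11, 0.04 and, on a probe set at 255 and 174, -0.55. For COX5B the others ran from -0.63 to 0.16. Of the 68, 41 were read by probe sets marked by the maker as matching several transcripts, 7 of them with the mark for cross-hybridization, so signal from related sequences can enter those values.

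**Figure D4:**
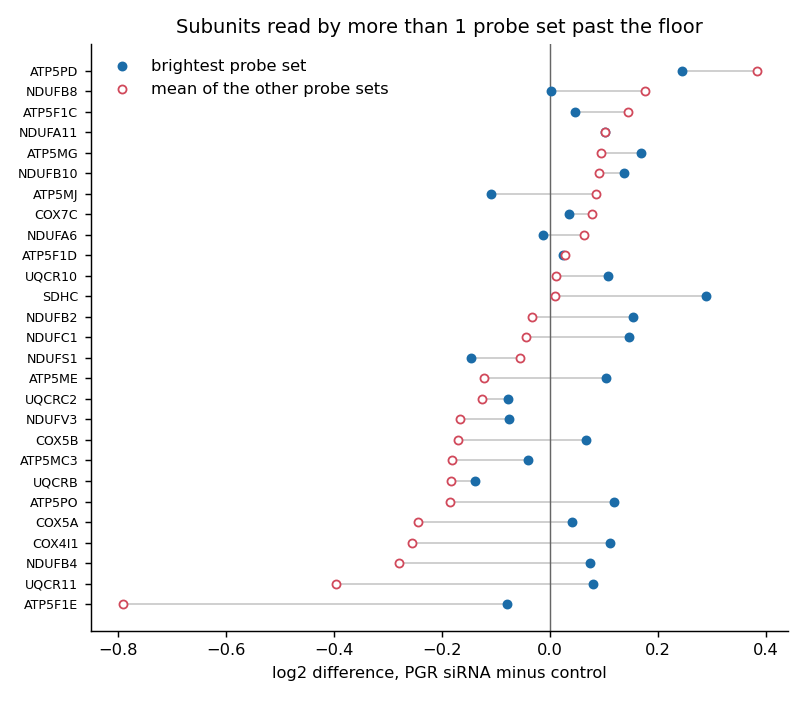
Difference between the arrays (log2, PGR siRNA minus control by the labels) for the 27 structural subunits with 2 or more probe sets past the floor on each array, the brightest as a filled point and the mean of the others as an open circle, joined per gene. The open circle lies to the left in 19 of 27 genes, farthest for ATP5F1E at -0.79.

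The assembly factors and other proteins that carry the same name prefixes were all past the floor. The 14 had a median of 0.02, with 8 higher and 6 lower. Of the 8 complex I factors, 6 were higher and 2 lower, with a median of 0.10 and of 0.09 beside genes of like signal. NDUFAF2, which associates with a late assembly intermediate, read 1812 and 2230, the highest at 0.30. NDUFAF5 read 1258 and 1519 (0.27) and NDUFAF6 1124 and 1316 (0.23). NDUFAF7, a methyltransferase that acts on a core subunit, read 1036 and 1070 (0.05), and its other probe sets gave -0.67 and 0.07.

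Of the 4 complex II factors, 3 were lower, with a median of -0.11 and of -0.16 beside genes of like signal. SDHAF3, which helps iron-sulfur cluster insertion, read 558 and 440, the lowest at -0.34. SDHAF1, with a like role, read 979 and 879 (-0.15), and its second probe set gave 0.22. SDHAF2, which helps attach the flavin to SDHA, was level at 1493 and 1494. SDHAF4 read 558 and 534 (-0.06). ATP5IF1 read 4686 and 5020 (0.10), with other probe sets at -0.15 and 0.46, and COX7A2L was level at 8584 and 8581.

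The 5 noncoding members were dim. COX6A1P1 was below the floor at 33.0 and 29.2. NDUFB2-AS1 (115 and 67.2), ATP5MC2P1 (109 and 87.4) and NDUFV1-DT (78.2 and 148) passed it on 1 array only, the last with the higher value on the array labelled PGR siRNA. NDUFV2-AS1 read 210 and 143, a difference of -0.55, and its other probe set gave 0.11. Whether signal of the coding partner enters these probe sets was not tested.

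The rest of the pathway was read from lists of genes with other name prefixes. Over 9 further genes past the floor, listed for complexes III and IV and cytochrome c, the median was 0.06 and 6 were higher. This list holds assembly proteins as well as subunits. CYCS, cytochrome c, read 14299 and 16447 (0.20), and CYC1, the haem subunit of complex III, read 7537 and 7695 (0.03, or -0.01 once the running median was subtracted). COX20, a complex IV assembly protein, was the highest at 3722 and 4776 (0.36), although its other probe sets gave -0.07 and 0.05. COX19, which takes part in copper delivery, had the lowest value at 267 and 218 (-0.29), and its other probe set past the floor gave 0.04.

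The 39 further assembly factors had a median of 0.13, with 29 higher and 10 lower, and of 0.10 beside genes of like signal. At least 25% higher were 3 of them, and 0 were at least 20% lower, beside 11.3% and 12.3% of all genes. BCS1L, which inserts the iron-sulfur protein into complex III, read 848 and 1162 (0.45). COA7, a complex IV assembly factor, read 1032 and 1410 (0.45), and UQCC1, which acts on cytochrome b, read 599 and 790 (0.40). COX11, which carries copper to complex IV, had the lowest value at 5975 and 4824 (-0.31), but its other probe sets past the floor gave -0.01 and 0.01.

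Of the 13 subunits encoded in mitochondrial DNA, 7 were read, with a median of 0.10, or -0.01 once the running median was subtracted. MT-CO2, an oxidase core subunit, read 56453 and 65044, the highest at 0.20, and MT-CO3 read 3112 and 2527, the lowest at -0.30. With the running median subtracted these were 0.05 and -0.35. The probe sets that gave these values for MT-CO2 and MT-CO3 both carry the mark for cross-hybridization. Mitochondrial and nuclear members of complex IV thus both held values on either side of 0. On the mitochondrial side the value below 0 was that of MT-CO3. Among the nuclear subunits of the symbol rule it was that of COX7A2, at -0.02.

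The neighbouring lists had medians just below 0. Beside the counts given for them, 11.3% of all genes past the floor were at least 25% higher and 12.3% at least 20% lower. The 21 citrate cycle and pyruvate dehydrogenase genes past the floor had a median of -0.003, or -0.02 once the running median was subtracted, with 9 higher, 0 at least 25% higher and 2 at least 20% lower. OGDH, of the 2-oxoglutarate dehydrogenase complex, read 430 and 262 (-0.71), the only gene of these lists past 1.5-fold, and CS, citrate synthase, was the highest at 3913 and 4653 (0.25). The 22 genes of electron entry, carriers and pores had a median of -0.02, or -0.04 once the running median was subtracted, with 10 higher, 4 at least 25% higher and 0 at least 20% lower. They ran from COQ3 at 1480 and 1201 (-0.30) to COQ6 at 321 and 440 (0.45), both enzymes of ubiquinone synthesis. The other probe set of COQ3 past the floor gave -0.001. The 19 regulators and genes of mitochondrial DNA expression past the floor had a median of -0.02, or -0.03 once the running median was subtracted, with 9 higher, 2 at least 25% higher and 0 at least 20% lower. TWNK, the mitochondrial helicase, was the highest at 798 and 1074 (0.43), and PPARGC1A, a coactivator of mitochondrial genes, the lowest at 125 and 107 (-0.22). The lists overlap in range with the structural subunits and were not tested against them.

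**Figure D5:**
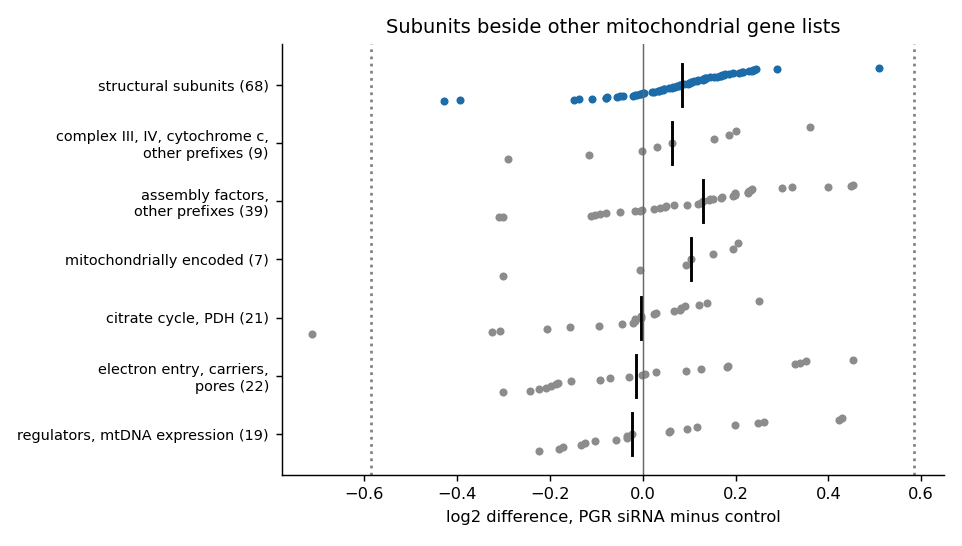
Difference between the arrays (log2, PGR siRNA minus control by the labels) for each gene past the floor in the structural subunits and 6 other mitochondrial lists, with 1 point per gene, black bars at list medians, dotted lines at 1.5-fold and the number of genes in parentheses. Medians run from -0.02 to 0.13, and OGDH in the citrate cycle list is the only point beyond a dotted line.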

How the data were processed

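AsPC-1 RNA was labelled with a 3' IVT kit and hybridized to 2 Affymetrix expression arrays, 1 for each siRNA. The values the authors deposited are intensities on a linear scale, 1 per probe set and array. The summary algorithm, background correction and scaling are not given in the sources used here, and precision is limited by the number of arrays. Of 54675 probe sets, 41097 had 1 gene symbol in the platform annotation and were used, 1801 had several and 11777 none. Each gene was read by its brightest probe set, as log2(intensity + 1), past the floor if either value reached 97.9. The calculation was tested on simulated data. Promoters were matched by Entrez gene identifier to a RefSeq table of GRCh38.p14. The members and lists were chosen with earlier results of these data known. Named genes were members beyond 1.5-fold, the extremes and the brightest of each complex and list, members below the floor, isoform pairs, members whose probe sets spread by more than 0.58, and PGR. All other named genes were chosen after their values were seen. Alternatives were another probe set rule, median centring, quantile normalization, loess (span 0.7), a running median over 201 genes, an offset of 16, other filters and folds of 1.25 and 2. The work was done in Python 3.11.15 with pandas 2.3.3, statsmodels 0.14.6 and numpy 2.4.6.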

Additional observations from a re-analysis of the deposited data

How the results depend on the processing

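With 1 array per condition no spread between cultures could be measured, and a member's value was counted as moved where it shifted by more than 0.21, the SD between probe sets of a subunit. The median over all structural subunits stayed between 0.03 and 0.10 under the alternatives planned, and the medians of complexes I, IV and V stayed above 0 under them. That of complex V went from 0.118 to 0.0186 when all probe sets of a gene were averaged, under which the medians of complexes I, III and IV were 0.0989, 0.021 and 0.099. Another alternative, chosen after seeing the data, used only the other probe sets of each gene. Its median was -0.044 over all subunits, -0.033 for complex I, -0.155 for complex III and -0.207 for complex IV. For complex V it stayed above 0 at 0.027 over 9 genes, and for complex II it was 0.009 on 1 gene. The median of complex II became 0.205 when all probe sets of a gene were averaged, -0.0961 without probe sets marked for shared sequence, -0.0195 under median centring, -0.0168 under loess and -0.0084 with the running median subtracted. The median of complex III was -0.071 without marked probe sets, -0.0132 under loess, -0.0063 with the running median subtracted and -0.0165 with every probe set counted. The median of the assembly factors and other proteins became -0.0139 under that averaging and -0.0029 without marked ones.

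The number of subunits at least 1.5-fold higher, 0 as deposited, was 5 under averaging, 1 without marked probe sets and 3 with no signal filter. The number at least 1.5-fold lower, 0 as deposited, was 2 under averaging and 2 without marked ones. A rule of 25% higher or 20% lower gave 1 higher and 2 lower, and a rule of 2-fold gave 0 and 0. The genes added by averaging were NDUFA11, NDUFA7, NDUFS1, NDUFS4 and NDUFS7 (higher) and ATP5F1A and NDUFB7 (lower). Each of these genes had a probe set below the floor on at least 1 array, which the averaging lets in. Values under the floor have no usable order, so the counts under averaging are not read as changes of these genes. Without marked probe sets, NDUFA11 was higher (11.9 and 101), and NDUFA2 (134 and 58.1) and COX5B (465 and 299) were lower. Of these readings only that of COX5B was past the floor on both arrays, and the brightest probe set of COX5B, a marked one, gave 0.07. No share of all genes under averaging, without marked probe sets or with no filter stands beside these counts. With no filter, ATP5MF, COX7B2 and COX8C were added, all below the floor on both arrays. For the members named by rule, 9 of 27 values moved by more than that SD under averaging, 5 of 20 without marked probe sets and 0 of 135 under other scalings or the other offset. No paired analysis was possible because each condition had 1 array.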
